A study of Mus musculus with 20 samples.

Results

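The 7 genes described here encode subunits of the GABA-A receptor, namely Gabra2, Gabra3, Gabra4, Gabra5, Gabrb1, Gabrb2 and Gabrd. They were chosen by gene symbol from 39179 genes in the count tables, with earlier results of these data known. The rule itself held no measured value. Another 8 subunit genes that were tested are not among the 7. All 7 were over 1 CPM (a gene's reads scaled to a fixed library size) in 3 or more mice and were among the 14792 genes tested. RNA was sequenced from the striatum of 20 adult male mice of breeding generation 17, about 6.5 months old. Both lines descended from an intercross of 8 inbred strains. The High-Active line had been bred for distance traveled in the home cage, and the Control line had been kept without selection, so that each line exists once and selection cannot be told apart from drift. Mice of each line received an injection of saline or of 0.25 mg/kg amphetamine, given as the d-amphetamine sulfate, and the striatum was taken 2 hours later. Each of the 4 combinations of line and injection held 5 mice. Parents were shared by some mice, since 5 breeding pairs gave the 10 High-Active mice and 8 pairs the 10 Control mice.

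GABA-A receptors are chloride channels opened by the transmitter GABA, and each is a ring of subunits drawn from several gene families. Alpha subunits shape the affinity for GABA and for benzodiazepines, beta subunits are required for assembly and transport to the membrane, and the delta subunit typifies receptors outside the synapse that respond to ambient GABA. Most striatal neurons are medium spiny neurons, which both release GABA and receive it, and the alpha4 and delta subunits carry tonic inhibition in these cells. In bulk tissue, fewer cells of a type and less RNA per cell cannot be told apart.

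Gene counts of a mouse summed to 32388971 to 53710713 reads, and the 7 subunit genes held 664 to 11171 reads each in a mouse. Markers of medium spiny neurons were abundant in every mouse, with a summed level of 4397 to 7244 CPM over 10 genes. Markers of cortical excitatory neurons, a neighbouring tissue, were all detected as well, none of the 9 being at 0 in all mice. The mean log2 CPM of these 9 genes, called the cortical score below, averaged 4.68 after amphetamine and 3.89 after saline. It averaged 3.97 in High-Active and 4.61 in Control mice. The mean cortical score was thus higher after amphetamine and in Control mice. Of the 9 genes, 0 were called for amphetamine and 3 between the lines, all 3 lower in High-Active mice. Scores of single mice overlapped, at 3.26 to 5.32 after amphetamine and 3.09 to 5.11 after saline. Markers of thalamic and subcortical glutamatergic neurons, 3 genes, moved with the line in the opposite direction, with a score of 4.54 in High-Active and 3.86 in Control mice, all 3 genes higher and 1 of them called. Their summed level ran from 41.1 to 177 CPM in High-Active and from 37.3 to 75.9 CPM in Control mice. A choroid plexus score of 4 genes averaged 1.37 after amphetamine and 2.02 after saline. It averaged 1.99 in High-Active and 1.40 in Control mice, with 0 of its genes called for either.

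The promoters of 4 genes are shown because amphetamine comparisons turned on Gabra5, Gabrb2 and Gabrb1, and because Gabra4 and Gabrb1 start beside each other on opposite strands. Each window runs from 250 bases before to 50 bases after a RefSeq start site on GRCm38.p6, in the direction of transcription. Capitals mark matches, on either strand, to 3 motifs. The first is the TATA-box motif TATAAA, to which general transcription factors bind. The second is the motif of the SP1 factor, spelled GGGCGG. The third is a partial cyclic-AMP response element (partial CRE), spelled TGACG.
Gabra5: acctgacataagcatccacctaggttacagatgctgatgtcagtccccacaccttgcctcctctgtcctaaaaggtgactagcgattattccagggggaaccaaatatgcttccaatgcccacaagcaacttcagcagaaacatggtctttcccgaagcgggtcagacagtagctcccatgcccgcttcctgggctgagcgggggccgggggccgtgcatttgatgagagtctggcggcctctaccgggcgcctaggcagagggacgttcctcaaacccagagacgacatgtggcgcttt
Gabrb2: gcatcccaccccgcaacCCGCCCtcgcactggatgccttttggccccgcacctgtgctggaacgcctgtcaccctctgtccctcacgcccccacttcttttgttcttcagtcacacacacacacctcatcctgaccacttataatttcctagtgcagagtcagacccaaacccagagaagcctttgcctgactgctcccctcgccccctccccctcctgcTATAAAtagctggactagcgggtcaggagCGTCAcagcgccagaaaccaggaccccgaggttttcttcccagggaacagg
Gabrb1: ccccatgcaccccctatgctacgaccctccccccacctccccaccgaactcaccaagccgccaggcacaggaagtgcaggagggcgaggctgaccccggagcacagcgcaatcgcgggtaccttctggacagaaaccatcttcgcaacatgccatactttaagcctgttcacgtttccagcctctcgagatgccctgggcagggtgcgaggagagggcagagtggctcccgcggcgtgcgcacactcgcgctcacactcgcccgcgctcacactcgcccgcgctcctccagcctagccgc
Gabra4: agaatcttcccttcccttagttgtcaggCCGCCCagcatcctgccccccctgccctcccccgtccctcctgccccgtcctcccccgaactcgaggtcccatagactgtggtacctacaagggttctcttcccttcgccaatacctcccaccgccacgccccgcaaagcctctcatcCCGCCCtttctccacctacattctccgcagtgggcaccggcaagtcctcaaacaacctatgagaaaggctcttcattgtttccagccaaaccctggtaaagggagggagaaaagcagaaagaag

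The Gabra5 window is chr7:57510010-57510309 (minus strand) and held none of these letters. The Gabrb2 window, at chr11:42420190-42420489 (plus strand), is the first of 3 and held a TATA box whose first base lies 30 bases before the start, an SP1 site and a partial CRE across the start. The Gabrb1 window, at chr5:71657671-71657970 (plus strand), is the first of 2 and held no match. The Gabra4 window, at chr5:71658259-71658558 (minus strand), held an SP1 site in 2 places. Of 32851 promoter windows in the table, 13.6% held the TATA box, 35.7% the SP1 site and 20.8% the partial CRE. The full CRE, TGACGTCA, which contains the partial one, and the AP-1 motif TGANTCA were in none of the windows of the subunit genes, and in 1.79% and 7.81% of all windows. RefSeq promoters were matched for 6 of the 7 genes, all except Gabrd. The start sites of Gabra4 and Gabrb1 lie 387 bases apart.

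Each level was first set on a common scale by dividing by exon length (RPKM), which is the scale of the comparisons between genes. Gabra4 was the highest, at 33.9 RPKM ± 3.51 (SD, n = 20 mice). Gabra3 followed at 28.5 ± 3.64 and Gabrd at 27.8 ± 3.56. The next group was Gabrb2 at 15.9 ± 2.50, Gabra5 at 13.5 ± 1.49 and Gabra2 at 13.1 ± 3.10. Gabrb1 was the lowest, at 1.90 ± 0.291. Its range did not overlap that of Gabra2, whereas the ranges of all other neighbours in this order overlapped. The low RPKM of Gabrb1 depends on the divisor, all annotated exon bases of a gene, at 13838 for Gabrb1 and 2875 to 7640 for the others. Before that division Gabrb1 was still the lowest, averaging 26.3 CPM against 40.0 for Gabra5. Its range of 17.9 to 32.5 CPM then overlapped the 30.9 to 50.3 CPM of Gabra5. In RPKM, Gabrd was above Gabrb2 in 20 of 20 mice and Gabra4 above Gabra3 in 17. On the same scale Gabra3 was above Gabrd in 13 and Gabra5 above Gabra2 in 11. Some of these orders also depended on the divisor. In CPM, Gabrd averaged 80.0 and Gabrb2 101, and Gabra5 averaged 40.0 and Gabra2 99.7, the reverse of both orders. The means of Gabra4, Gabra3 and Gabrd kept their order, at 206, 112 and 80.0 CPM.

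**Figure D1:**
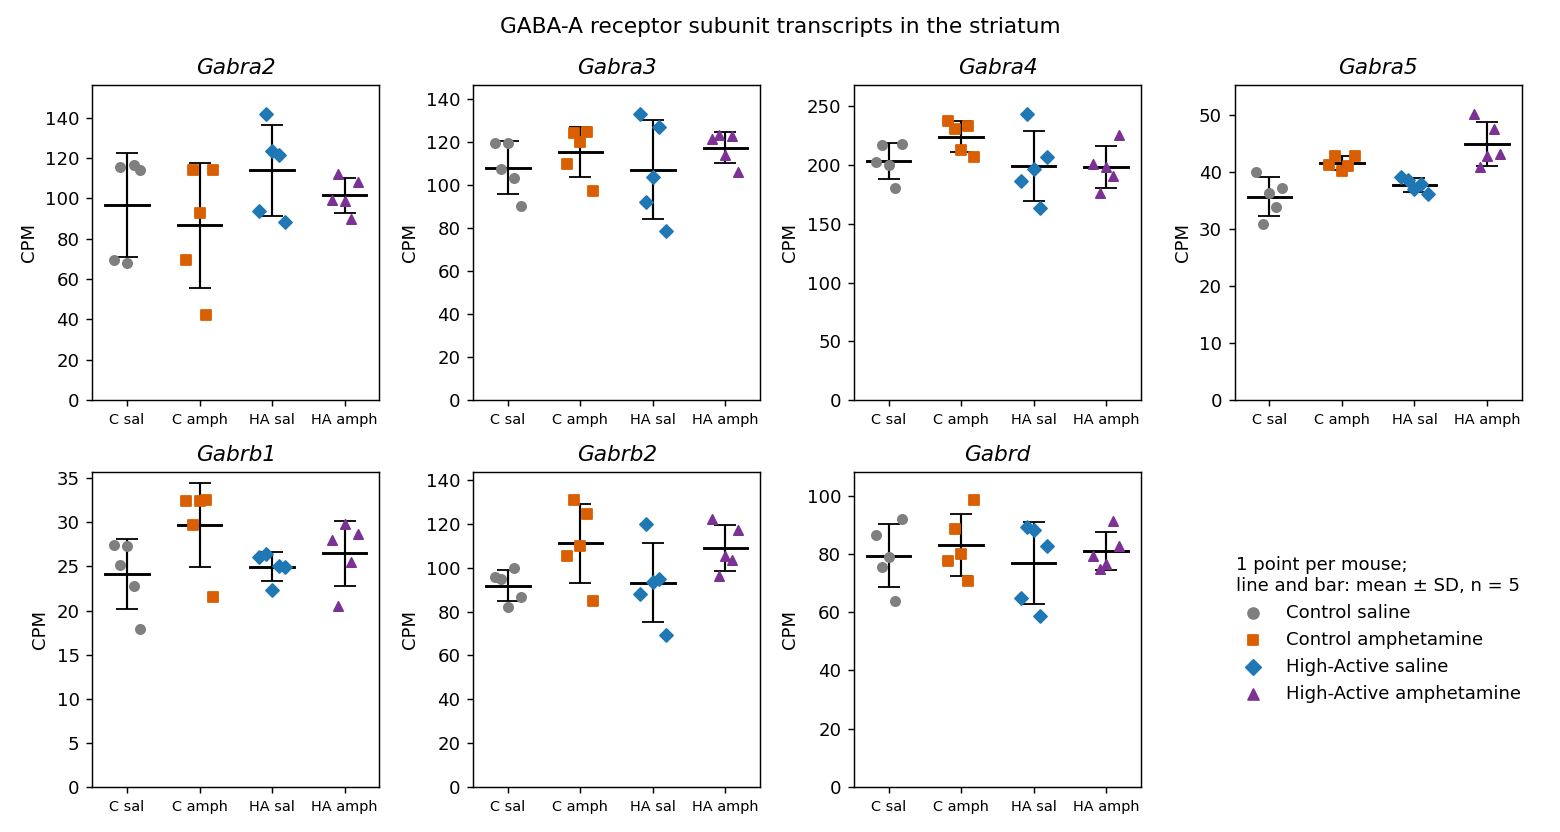
Scaled read counts (CPM, vertical axis from 0) of the 7 subunit genes in Control (C) and High-Active (HA) mice after saline (sal) or amphetamine (amph), with 1 point per mouse, horizontal lines for group means and bars for ± SD (n = 5). In the Gabra5 panel, the 10 amphetamine mice sit between 40.15 and 50.3 CPM, above all 10 saline mice, and the Gabra2 panel has the widest scatter, from 42.3 to 142 CPM.

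Gabra5, on chromosome 7 from 57407672 to 57510059 (GRCm38), encodes an alpha subunit found largely outside synapses and best known from the hippocampus. After saline, Control mice had 40.0, 30.9, 36.4, 34.0 and 37.3 CPM, and High-Active mice had 39.2, 38.68, 37.1, 38.0 and 36.1 CPM. After amphetamine, Control mice had 41.2, 42.8, 40.15, 41.1 and 42.95 CPM, and High-Active mice had 50.3, 40.9, 42.9, 47.65 and 43.15 CPM. Every amphetamine mouse was above every saline mouse, although the lowest of the former, at 40.15 CPM, lay just over the highest of the latter, at 40.04 CPM. Of the 14792 genes tested, 1 gene, or 0.00676%, had all 10 amphetamine mice above all 10 saline mice, and this gene was Gabra5. This separation holds in CPM scaled by TMM, with library factors from 0.97 to 1.03. The factor was 1.032 for High-Active saline replicate 1, at 39.2 CPM, and 1.006 for the amphetamine mouse at 40.15 CPM. The separation depends on these factors and was not recomputed under another scaling. The mean was 43.3 CPM ± 3.23 after amphetamine and 36.8 ± 2.69 after saline (SD, n = 10 each). The amphetamine difference was 0.24 on the log2 scale (SE 0.04, 95% interval 0.14 to 0.33), or 1.18-fold, and its p of 4.53e-05 ranked 3 among all genes in edgeR's quasi-likelihood test. The adjusted p over all genes was 0.166, above the threshold of 0.1, which no gene passed for amphetamine in that test (0 of 14792, 0%).

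The amphetamine difference of Gabra5 had a similar size in both lines, at 0.22 (SE 0.06) in Control and 0.25 (SE 0.06) in High-Active mice. The difference between these responses was 0.03 on the log2 scale, with a 95% interval of -0.16 to 0.22 (edgeR quasi-likelihood, adjusted p = 1). Among 6 families with mice in both treatments, Gabra5 was higher after amphetamine in 6, by 0.00 to 0.47 on the log2 scale. That count follows from the separation of the treatments and adds nothing to it, so only the sizes are informative. The smallest of these differences was in the Control family of the saline mouse with the highest level, and the largest in the Control family of the saline mouse with the lowest.

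Whether Gabra5 passed the threshold depended on the test and on single mice. It was called with DESeq2 (adjusted p = 0.00108), which called 2.64% of genes for amphetamine, and with edgeR's likelihood-ratio test with robust dispersions (adjusted p = 0.00687), which called 3.1%. In the quasi-likelihood test it was called when any 1 of 4 mice was left out. Its adjusted p was 0.0236 without Control saline replicate 1 (0.867% of genes called) and 0.0444 without High-Active amphetamine replicate 2 (2.3%). It was 0.0696 without High-Active saline replicate 1 (0.224%) and 0.0769 without Control saline replicate 5 (0.135%).

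The cortical score moved with Gabra5. Summed over its 9 marker genes, cortical RNA had a median of 671 CPM after amphetamine (range 217 to 968) and 310.5 CPM after saline (range 163 to 829). After subtraction of group means, log2 Gabra5 and the cortical score had a Pearson's r of 0.73 and a Spearman's rho of 0.72 across the 20 mice, and r was 0.67 without the 2 mice of most extreme score. These points share their libraries and depth, so the value is a description. With the cortical score as a covariate in the edgeR quasi-likelihood model, the amphetamine difference of Gabra5 fell from 0.24 to 0.14 (SE 0.04, n = 20 mice, p = 0.00529, adjusted p = 0.939). The part of cortical RNA in the measured difference was not otherwise tested. In High-Active amphetamine mice, the lowest Gabra5 level, 40.9 CPM, was in the mouse with the lowest score, 3.26, and the 2 highest levels, 50.3 and 47.65 CPM, were in the mice with the highest scores, 5.01 and 5.32. High-Active saline mice did not follow this order, as the lowest Gabra5 level, 36.1 CPM, was in the mouse with the highest score, 4.01. In Control saline mice, the highest level, 40.0 CPM, was at the highest score, 5.11. The 2 lowest levels there, 30.9 and 34.0 CPM, were at the 2 lowest scores, 3.77 and 3.54. In Control amphetamine mice, the lowest level, 40.15 CPM, was at the lowest score, 4.76. The highest level of that group, 42.95 CPM, was at 4.81, below the top score of 5.11.

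**Figure D2:**
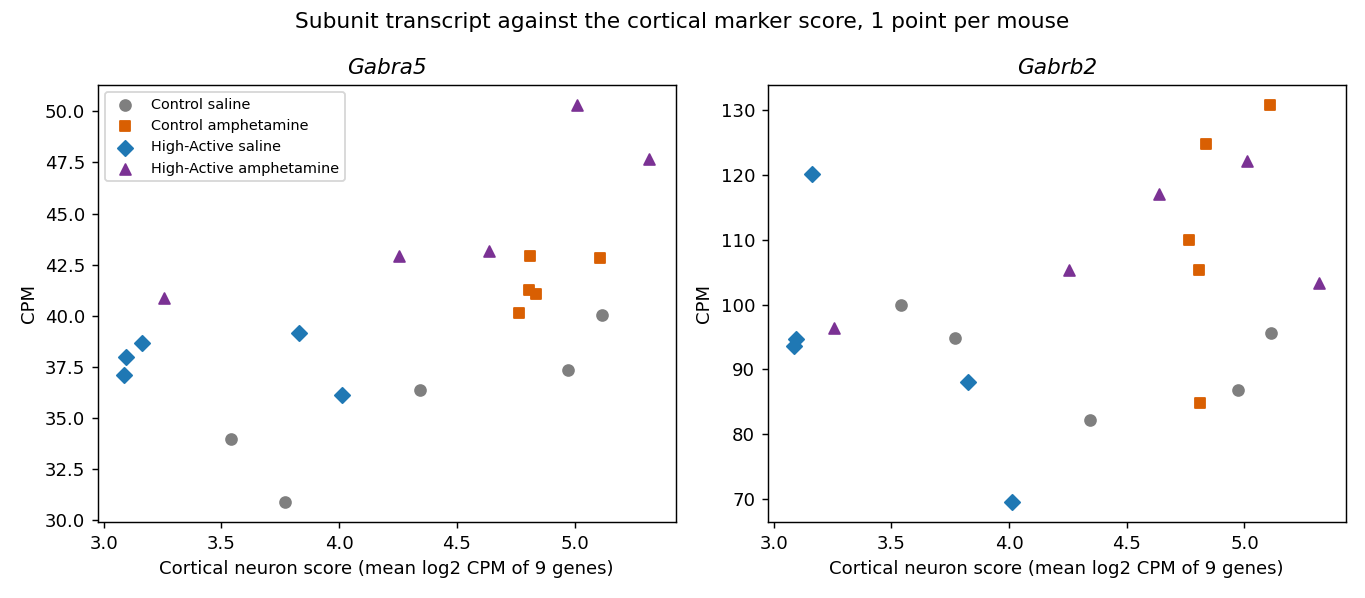
CPM of Gabra5 (left) and Gabrb2 (right) against the cortical score, the mean log2 CPM of 9 cortical excitatory neuron markers, with 1 point per mouse and a symbol for each group. With group means removed, the r with the score was 0.73 for Gabra5 and -0.09 for Gabrb2.

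Gabrb2, on chromosome 11 from 42419757 to 42629028, encodes a beta subunit of the most common GABA-A receptors of the brain. After saline, Control mice had 95.7, 94.8, 82.2, 100 and 86.9 CPM, and High-Active mice had 88.1, 120.2, 93.6, 94.75 and 69.5 CPM. After amphetamine, Control mice had 105.4, 131, 109.9, 125 and 84.8 CPM, and High-Active mice had 122, 96.4, 105.3, 103.4 and 117 CPM. The treatments overlapped, with 9 of 10 amphetamine mice above the saline median and 3 of 10 above every saline mouse. The means were 110.0 CPM ± 13.9 and 92.6 ± 13.1 (SD, n = 10 each), a difference of 0.25 on the log2 scale (SE 0.09, 95% interval 0.07 to 0.43). Its p of 0.00925 did not pass adjustment over all genes (edgeR quasi-likelihood, adjusted p = 0.253), whereas the robust likelihood-ratio test gave an adjusted p of 0.0152. Gabrb2 was higher after amphetamine in 5 of the 6 families. Its difference was 0.27 with the cortical score as a covariate (SE 0.11, adjusted p = 0.939), and within groups its r with that score was -0.09.

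Gabrb1, on chromosome 5 from 71658113 to 72149037, encodes another beta subunit, which is also expressed in astrocytes. After saline, Control mice had 27.4, 25.2, 27.3, 22.8 and 17.9 CPM, and High-Active mice had 26.1, 26.4, 22.3, 25.1 and 24.99 CPM. After amphetamine, Control mice had 32.4, 29.7, 32.4, 32.5 and 21.5 CPM, and High-Active mice had 28.0, 20.5, 29.8, 25.5 and 28.65 CPM. Of the 10 amphetamine mice, 7 were above every saline mouse and 2 were below the saline median. The difference was 0.19 on the log2 scale (SE 0.09, n = 20 mice, p = 0.0417, adjusted p = 0.384 by edgeR's quasi-likelihood test). It was 0.30 (SE 0.13) in Control and 0.09 (SE 0.13) in High-Active mice, but the difference between the lines in response, -0.21, had a 95% interval of -0.59 to 0.16. With the cortical score as a covariate the amphetamine difference was 0.14 (SE 0.12, adjusted p = 0.948).

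The other 4 genes had smaller or less regular amphetamine differences. Gabra3 averaged 116 CPM ± 9.25 after amphetamine and 107 ± 17.4 after saline (SD, n = 10 each). Gabra4 averaged 211 ± 20.2 and 201.5 ± 22.4 CPM, and Gabrd 81.95 ± 8.41 and 78.04 ± 11.9 CPM. Gabra2, whose subunit is common at synapses and on axon initial segments, was the only member with a lower mean after amphetamine, at 94.1 ± 22.8 against 105.4 ± 24.4 CPM. All 10 amphetamine mice were below the saline median of Gabra2, yet the log2 difference of -0.16 had an interval of -0.49 to 0.17 (edgeR quasi-likelihood, adjusted p = 0.728). It was -0.08 without Control amphetamine replicate 4, the mouse with the lowest Gabra2 level, and 0.03 with the cortical score as a covariate. In all, 0 of 7 subunit genes passed the threshold for amphetamine in the quasi-likelihood test, against 0% of all genes. At an unadjusted p under 0.05 there were 3 of 7, against 12.5% of all genes. DESeq2 called 1, against 2.64% of all genes, and the likelihood-ratio test with robust dispersions called 2, against 3.1%. The median difference was 0.11 over the 7 genes and -0.01 over all genes tested. Over the 8 other tested subunit genes, which are not members here, it was -0.14. Of those 8, 1 had an unadjusted p under 0.05 in the quasi-likelihood test.

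**Figure D3:**
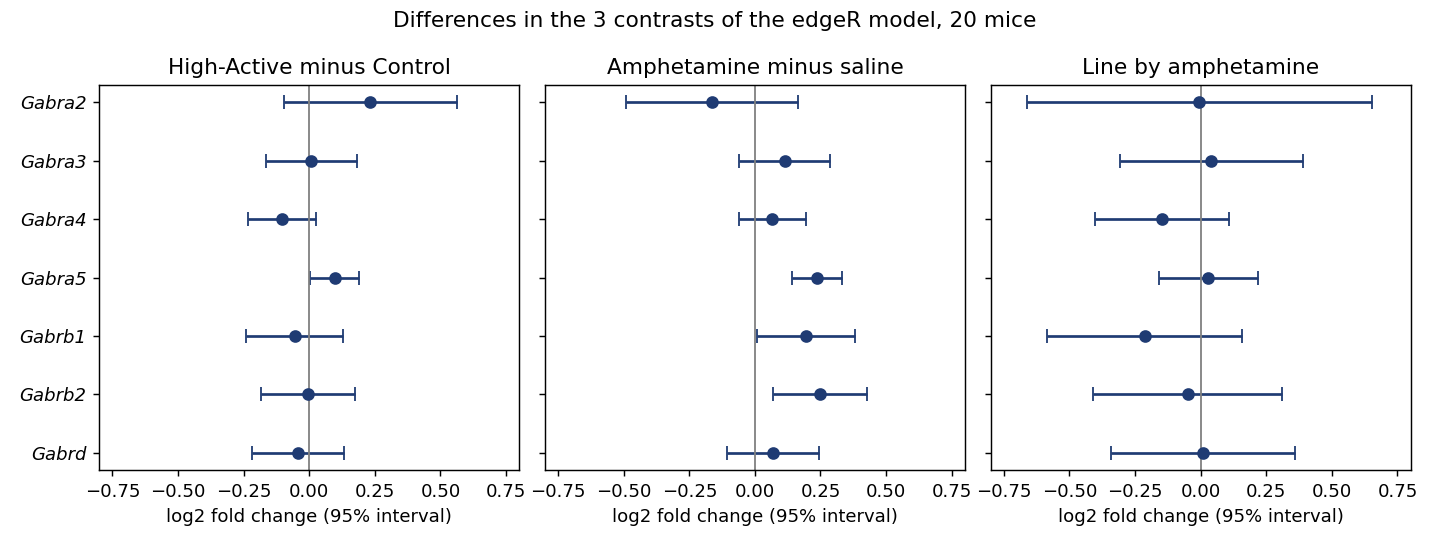
Log2 fold changes (horizontal axis) with 95% intervals from the edgeR quasi-likelihood model of 20 mice, for line (left), amphetamine (middle) and the line-by-amphetamine difference (right), with 1 row per subunit gene. The amphetamine intervals of Gabra5, Gabrb1 and Gabrb2 lie above 0, the line interval of Gabra5 lies just above 0, and the Gabra2 intervals are the widest in all 3 panels.

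Between the lines, 0 of 7 subunit genes passed the threshold in the quasi-likelihood test, while 14.5% of all genes did. At an unadjusted p under 0.05 there was 1 of 7, against 26.1% of all genes. DESeq2, the likelihood-ratio test and limma-voom with a family block called 0 of 7, against 19%, 15.3% and 12.7% of all genes. The gene under 0.05 was Gabra5, at 41.4 CPM ± 4.65 in High-Active and 38.68 ± 3.97 in Control mice (SD, n = 10 each). This was a difference of 0.10 on the log2 scale (SE 0.04, 95% interval 0.00 to 0.19, n = 20 mice, p = 0.0442, adjusted p = 0.178). The cortical score was lower in High-Active mice by 0.64, with 8 of its 9 genes lower and 3 of them called. With that score as a covariate the Gabra5 line difference was 0.18 (SE 0.04, adjusted p = 0.0344), in a fit that called 3.08% of genes. With the oligodendrocyte score added it was 0.19 (adjusted p = 0.0409), and 2.84% of genes were called. Gabra5 thus passed the threshold between the lines only in these 2 fits among those run.

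Gabra4, on chromosome 5 from 71569749 to 71658308, was the most abundant subunit transcript. After saline, Control mice had 202.5, 217, 199.8, 180.4 and 218 CPM, and High-Active mice had 186.5, 244, 197, 163 and 207 CPM. After amphetamine, Control mice had 237, 231, 213, 233 and 207 CPM, and High-Active mice had 201, 176, 198, 191 and 226 CPM. The lines overlapped, with 8 of 10 High-Active mice below the Control median. The line difference was -0.10 on the log2 scale (SE 0.06, 95% interval -0.23 to 0.02, edgeR quasi-likelihood, adjusted p = 0.298). Without High-Active saline replicate 2, which had the highest level of all mice, it was -0.14 (adjusted p = 0.0899), and in that fit 16.7% of all genes were called. Markers of medium spiny neurons had the same direction, with 9 of 10 lower in High-Active mice and 0 called by edgeR's quasi-likelihood test. Their summed level ran from 4397 to 7244 CPM in High-Active and from 5426 to 6835 CPM in Control mice. Within groups Gabra4 had an r of 0.75 with these markers and of -0.60 with those of thalamic and subcortical glutamatergic neurons, which were higher in High-Active mice. The part of either list in the Gabra4 difference was not tested. With the cortical score as a covariate the line difference was -0.06 (SE 0.07, adjusted p = 0.76).

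Gabra2, on chromosome 5 from 70957597 to 71095849, varied most from mouse to mouse. After saline, Control mice had 69.5, 116, 68.05, 117 and 114 CPM, and High-Active mice had 94.0, 142, 124, 122 and 88.2 CPM. After amphetamine, Control mice had 69.4, 114, 93.0, 42.3 and 114 CPM, and High-Active mice had 99.25, 112, 98.8, 89.8 and 108 CPM. The 4 lowest mice were all Control, while 5 Control mice lay between 114 and 117 CPM. The coefficient of variation was 29.7% in Control and 16.1% in High-Active mice. Across all 20 mice it was 23.8% for Gabra2, against 10.35% to 15.7% for the other 6 genes. The line difference of 0.23 on the log2 scale had an interval of -0.10 to 0.56 (edgeR quasi-likelihood, adjusted p = 0.367). It was 0.15 without Control amphetamine replicate 4 (adjusted p = 0.513) and 0.09 with the cortical score as a covariate (SE 0.18, adjusted p = 0.878).

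The other 4 subunit genes were close between the lines. Gabra3, an X-linked gene from 72432681 to 72656848 whose alpha subunit is frequent in monoamine neurons and the thalamic reticular nucleus, differed by 0.01 on the log2 scale with a 95% interval of -0.17 to 0.18. Gabrb2 differed by -0.00 (interval -0.18 to 0.18), Gabrd by -0.04 (interval -0.22 to 0.13) and Gabrb1 by -0.06 (interval -0.24 to 0.13). Gabrd lies on chromosome 4 from 155384980 to 155398112. Its levels ran from 58.7 to 98.35 CPM with a median of 79.5, and those of Gabra3 from 78.65 to 133 CPM with a median of 116.4.

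The response to amphetamine did not differ detectably between the lines in any of the 7 genes. The quasi-likelihood test called 0 of 7, against 0% of all genes, and 0 of 7 had an unadjusted p under 0.05, against 2.97% of all genes. DESeq2 also called 0, as did the likelihood-ratio test with robust dispersions, against 0% and 0.0406% of all genes. The estimates ran from -0.21 for Gabrb1 to 0.04 for Gabra3. The intervals were wide, reaching from -0.66 to 0.65 for Gabra2, so that sizeable differences in response could not have been seen with 5 mice per group.

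The subunit genes differed in the cell type markers they followed from mouse to mouse. Each correlation here is of log2 CPM after subtraction of the 4 group means, over 20 mice that share library and depth with both measures, and is given as a description. Gabra4 and Gabrd, the alpha4 and delta partners, moved with the markers of medium spiny neurons, with r of 0.75 and 0.69, and with each other at 0.52, which was 0.25 without the 2 mice of most extreme Gabra4. Gabra3 ran opposite to markers of microglia, with an r of -0.78, and of medium spiny neurons, with an r of -0.77. Its r was 0.65 with interneuron markers and 0.57 with those of thalamic and subcortical glutamatergic neurons. With the latter list Gabra4 had an r of -0.60 and Gabrd of -0.63. Its r with Gabrd was -0.57 and with Gabra4 was -0.48. Gabra4 ran opposite to astrocyte markers (r = -0.78, and -0.54 without the 2 mice of most extreme score). Gabra5 was the only member with an r above 0.5 with the cortical score.

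**Figure D4:**
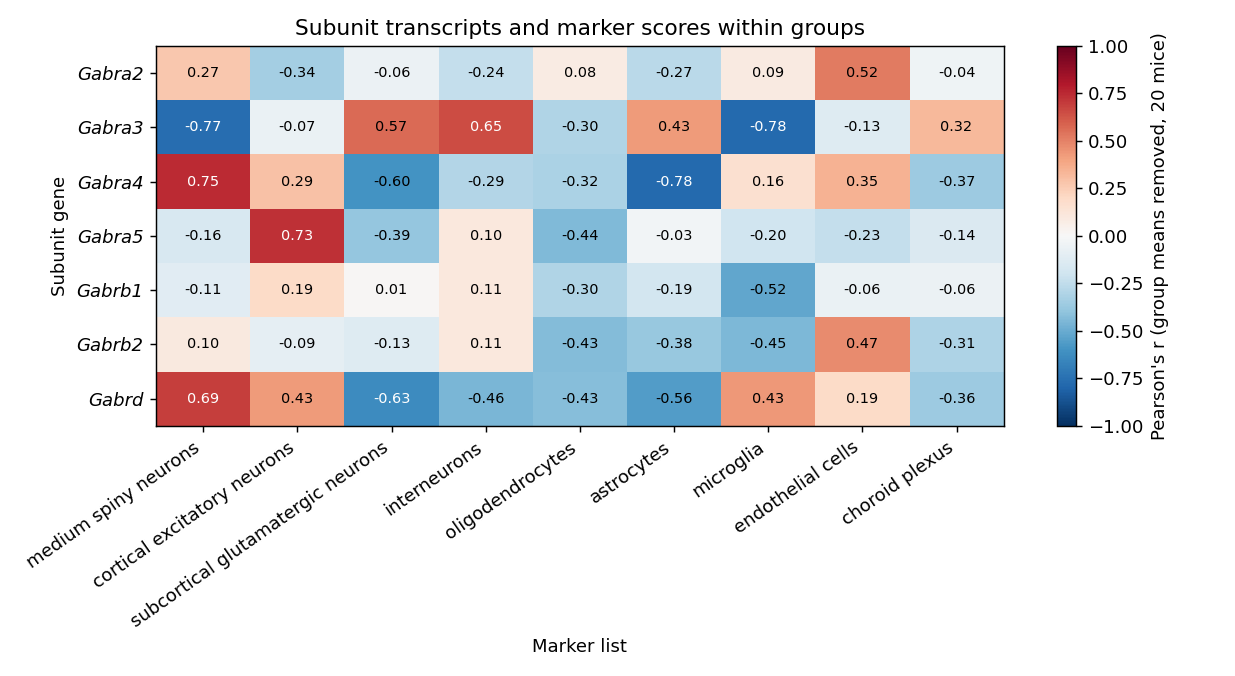
Pearson's r (colour scale from -1 to 1, values printed) between log2 CPM of each subunit gene (rows) and the mean log2 CPM of each marker list (columns) after subtraction of group means, over 20 mice. Gabra4 and Gabrd are positive with medium spiny neuron markers (0.75 and 0.69), Gabra3 is negative (-0.77), and Gabra5 is positive with cortical markers (0.73).

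The transcripts most like each subunit gene on the same scale, up to 3 per gene, were sought among all tested genes. Gabra4 was most like Epha4 (r = 0.91), a receptor of axon guidance, and then Kcna4, a potassium channel gene. Gabra3 was most like Elavl4 (r = 0.93), an RNA-binding protein of neurons, followed by Cdk14 and Mff. Gabrd was most like Prkcz (r = 0.89), then Rmnd5b and Itpka. Prkcz, a protein kinase C gene, lies within 1 Mb of Gabrd on chromosome 4, from 155260129 to 155361361. Gabrb2 was most like Eif4g1 (r = 0.92), a translation initiation factor, then Cul3 and Arfgef1. Gabra5 was most like Rpp40 (r = 0.88), and St8sia5 was also among its closest. Gabra2 was most like Ugdh (r = 0.82), Trim65 and Mindy4, and Gabrb1 was most like Guf1 (r = 0.84), Tmem33 and Wdr44. Ugdh, Guf1 and Tmem33 lie on chromosome 5, as do Gabra2 and Gabrb1 themselves, and Gabra2 and Gabrb1 had an r of -0.51 with each other.

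Gabra2, Gabra4 and Gabrb1 are members of one subunit cluster on chromosome 5. Gabra4 and Gabrb1, despite their adjoining start sites, had an r of only 0.28. In the gene annotation, 46 exonic bases of Gabra4 and Gabrb1 overlap on opposite strands, and 148 bases of Gabra5, or 4.98% of its exons, overlap a gene on the opposite strand. The strand setting of the counting is not given in the sources used here, so reads in these stretches could belong to either gene. None of the tested genes within 1 Mb of Gabra2 (3 genes), Gabra4 (7), Gabra5 (2), Gabrb1 (11) or Gabrb2 (7) was called between the lines. On chromosome 5 these windows overlap, so Gabra2, Gabra4, Gabrb1 and several other genes recur in the counts. For Gabra3 the count was 4 of 22, all higher in High-Active mice, and for Gabrd 4 of 52, with 1 higher and 3 lower, beside the 14.5% of all genes.

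Among 8 other tested subunit genes, 1 was called between the lines, beside 14.5% of all genes. This was Gabre, the epsilon subunit gene on the X chromosome within 1 Mb of Gabra3, which was higher in High-Active mice by 1.05 on the log2 scale (SE 0.33, adjusted p = 0.0564). The part of cortical or subcortical RNA in the Gabre difference was not tested. Of 31 tested genes for GABA synthesis, uptake, GABA-B receptors, inhibitory scaffolds and chloride transport, 5 were higher and 2 were lower in High-Active mice by edgeR's quasi-likelihood test, beside the same 14.5% of all genes. For amphetamine 0 of the 31 were called by that test, and 6 had an unadjusted p under 0.05, beside 12.5% of all genes. The difference between this list and the 7 members was not tested.

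Slc6a11, the GABA transporter GAT-3 of astrocytes, was at 237 CPM ± 67.5 in High-Active and 159 ± 33.6 in Control mice (SD, n = 10 each), a log2 difference of 0.58 (SE 0.15, adjusted p = 0.0261 by edgeR). Kctd8, an auxiliary subunit of GABA-B receptors, was at 30.0 ± 4.51 and 23.55 ± 2.68 CPM, a difference of 0.35 (SE 0.08, adjusted p = 0.0177 by edgeR). Hap1, which carries GABA-A receptors to the synapse with kinesin motors, was higher by 0.43, Plcl1, which takes part in receptor trafficking, by 0.24, and Iqsec3 by 0.22. Nlgn2, the neuroligin of inhibitory synapses, was lower by -0.10 (SE 0.03, adjusted p = 0.034 by edgeR). In the same comparison 2 of 5 astrocyte markers were called, both higher in High-Active mice, and Gfap had a log2 difference of -0.33 (adjusted p = 0.31). The summed level of the 5 markers ran from 924.5 to 1292 CPM in High-Active and from 913 to 1035 CPM in Control mice. The part of astrocyte RNA in the Slc6a11 difference was not tested, nor was the part of any marker list in the other differences of this paragraph.

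Glo1, which encodes the glyoxalase that removes methylglyoxal, a compound known to activate GABA-A receptors, was set beside the 7 genes on the within-group scale. Its r was 0.55 with Gabra5 and -0.52 with Gabrb1, and lay between -0.20 and 0.33 with the other 5. Both correlations are descriptions over 20 mice.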

How the data were processed

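Striatal RNA of 20 mice was sequenced as paired reads from stranded TruSeq libraries. The authors aligned them to GRCm38 with TopHat2 2.0.10 and Bowtie2 2.1.0 and deposited HTSeq 0.6.1 counts per Ensembl gene, not normalized. CASAVA 1.8.2 and SAMtools 0.1.19 are also named in their notes. Rows that name no gene held 15.97% to 17.49% of each file's total and were left out. Genes above 1 CPM in at least 3 mice were scaled by TMM and tested in edgeR 4.0.16 (quasi-likelihood test, 4 group means), with Benjamini-Hochberg adjustment over 14792 genes and a threshold of 0.1. Line and amphetamine effects were averaged over the other factor, and the interaction compared the responses of the lines. CPM in single mice used the TMM library sizes. Alternatives used DESeq2 1.42.0, limma 3.58.1, other filters and scalings, marker scores as covariates, families as a block or summed, and each mouse left out. Symbols, positions and exon lengths came from GENCODE M21 (GRCm38), with 1486 of 39179 identifiers unmatched. All members are named, and of the other lists the genes called between lines, apart from a few genes not reported here. Members and lists were chosen with earlier results of these data known. Mice were numbered in accession order within groups. Siblings within a group are not fully independent, so p-values may be too small.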

Additional observations from a re-analysis of the deposited data

Results flagged for a closer look

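In Control amphetamine mice, replicate 5 had 21.5 CPM of Gabrb1, while the other 4 mice of that group had 29.7 to 32.5 CPM, so that its gap to the nearest mouse exceeded Dixon's 95% critical value for 5 samples (0.71). It was 1 of 28 combinations of gene and group tested, and chance flags about 1 in 20. Without this mouse the amphetamine difference of Gabrb1 was 0.24 on the log2 scale (edgeR quasi-likelihood, adjusted p = 0.182).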

How the results depend on the processing

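Of 203 values of single genes recomputed under alternatives other than leaving out a mouse, 173 kept direction and side of the threshold, 5 newly passed it, and 25 changed sign, all of them without passing it. The number of subunit genes called between lines was 1 with the cortical score as a covariate (3.08% of all genes called) and 1 with cortical and oligodendrocyte scores (2.84%), Gabra5 in both. For amphetamine it was 1 with DESeq2 (2.64%) and 2 with the likelihood-ratio test (3.1%). The cause was not tested. With single mice left out, the number ranged from 0 to 1 between lines (9.36% to 17.2% of all genes called) and from 0 to 1 for amphetamine (0% to 2.3%). Sign changes, in log2 units, were as follows. With the cortical covariate, line values were -0.0004281 for Gabra3 and 0.0547 for Gabrd, amphetamine values 0.0262 for Gabra2 and -0.0431 for Gabrd, and interaction values 0.12 for Gabra2, -0.0464 for Gabra5 and -0.0812 for Gabrd. With both covariates, line values were 0.0217 for Gabrb1, 0.0417 for Gabrb2 and 0.0913 for Gabrd, the amphetamine value of Gabra2 was 0.0487, and interaction values were 0.15 for Gabra2, -0.0319 for Gabra5, 0.0853 for Gabrb2 and -0.0308 for Gabrd. The likelihood-ratio test gave -0.0066 for Gabra3 between lines and -0.0003127 for the Gabrd interaction. The family block gave -0.0001598 for Gabra3 between lines and 0.0597 for the Gabra2 interaction, and no filter gave 0.0047 for the latter. In saline mice alone, line values were -0.013 for Gabra3, 0.0512 for Gabrb1 and 0.0204 for Gabrb2, counts summed over families gave 0.0471 for Gabrb2, and Gabra4 responded to amphetamine by -0.0071 in High-Active mice alone. With single mice left out, line values ranged from -0.0397 to 0.0538 for Gabra3 and from -0.0585 to 0.0404 for Gabrb2, and interactions from -0.18 to 0.12 for Gabra2, -0.0485 to 0.14 for Gabra3, -0.0144 to 0.0796 for Gabra5, -0.14 to 0.0592 for Gabrb2 and -0.0711 to 0.0807 for Gabrd. The adjusted p of the Gabra5 amphetamine difference ranged from 0.0236 to 0.351 over these fits. No paired analysis by replicate number was possible because the labels give none that groups share. With family as a block in limma-voom, 0 subunit genes were called in any of the 3 contrasts, against 12.7% of all genes for line and 0% for the others. The Gabra5 amphetamine difference in that fit was 0.24 (adjusted p = 0.139). Each gene had at least 664 reads in every mouse.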
